A study of Homo sapiens with 12 samples.

Results

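RNA was compared between the libraries with the highest and the lowest IFI6 level of a study of TE-1 cells, an established human oesophageal cancer line. OE_IFI6 cells were transfected with a vector that overexpresses IFI6, and sh_IFI6 cells with a hairpin vector that silences it. Both were grown in DMEM with foetal bovine serum and harvested 48 h after transfection, and the label on every library was total RNA. The comparison uses 6 of the 12 libraries, 3 per group. The other 6 belong to OE_control (the control vector for overexpression) and sh_control (the control hairpin vector), also 3 per group, and they enter as a yardstick. Values are FPKM, which scales the fragments of a gene to its transcript length and to the size of the library. Members were the protein-coding genes whose FPKM averaged 1 or more over the 12 libraries, 10925 of 19771. The gene nearest above that limit was ZNF92 at 1.0005 FPKM, and the gene nearest below it averaged just under 1. OE_IFI6 and sh_IFI6 differ in the kind of vector as well as in IFI6, and within this contrast those differences cannot be told apart. The vector backbones, the hairpin sequence, the share of cells transfected and whether replicates are separate cultures are not stated by the labels. The p-values therefore measure only the spread between these libraries, which may be technical.

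IFI6 is a small hydrophobic protein whose gene is switched on by type I interferon. It belongs to a family with IFI27, IFI27L1 and IFI27L2. The protein has been placed at mitochondria and at the endoplasmic reticulum, and it is known for opposing apoptosis and for restricting some RNA viruses. In a comparison of high with low IFI6, interferon targets, stress genes, mitochondrial genes and death regulators are the gene groups nearest to that background.

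IFI6 has 3 coding transcripts in the deposited tables, which differ in 1 short stretch of the reading frame. They are shown because 1 of them carries nearly all of the IFI6 difference. The stretch was read from GENCODE release 29 (GRCh38) transcripts, minus strand, chr1:27669221-27669244, 5′ to 3′, with capitals for bases that IFI6-202 lacks and 24 shared bases on each side in lower case.
IFI6-202: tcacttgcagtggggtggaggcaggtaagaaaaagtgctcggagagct
IFI6-203: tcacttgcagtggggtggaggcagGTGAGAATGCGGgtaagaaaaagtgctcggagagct
IFI6-201: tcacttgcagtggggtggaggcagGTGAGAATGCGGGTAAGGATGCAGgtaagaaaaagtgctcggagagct
IFI6-202 has a reading frame of 130 codons. IFI6-203 adds 12 bases and has 134 codons, and IFI6-201 adds 24 bases and has 138.

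The libraries were checked before the comparison. Summed FPKM over protein-coding genes lay between 325877 and 357145 in all 12. Log2 values correlated at 0.968 to 0.976 between libraries of the same IFI6 group and at 0.960 to 0.978 between the groups, and 0 pairs were identical. On the first principal component of the 6 libraries (31.6% of the variance), OE_IFI6 replicates 1 and 2 lay at -20 and -21.6. OE_IFI6 replicate 3 lay at 9.16, inside the sh_IFI6 range of 5.67 to 19.7, although its IFI6 value was the highest of all. On the second component (23.5%) it lay at 0.975, between replicates 1 and 2 at 22.1 and -18.9. On the third (15.3%) it lay at -21.1, against 3.67 and 0.81. Correlations between the OE_IFI6 libraries were all alike, at 0.9675 to 0.9694. On the first component of all 12 libraries (23.1%), the 3 OE_control libraries lay at 22.2 to 30.6 and the other 9 at -11.3 to -5.89. The simple-epithelial keratins KRT7, KRT8 and KRT18 averaged 78.0, 965 and 471 FPKM in OE_IFI6 and 89.0, 1060 and 450 FPKM in sh_IFI6. Of 10 squamous epithelial markers, 1 (KRT15) reached a mean of 1 FPKM. SOX2, KRT5, KRT6A and IVL were listed at 0 in every library, and so was the epithelial adhesion gene EPCAM, so the labelled oesophageal origin is not visible in those markers. Of 4 endothelial markers 0 reached 1 FPKM, and PTPRC and CD3E, which define leukocytes, stayed at or below 0.192 FPKM.

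IFI6 (ENSG00000126709, chromosome 1, 27666064 to 27672198) was far higher in the overexpressing cells. It stood at 309, 268 and 358 FPKM in OE_IFI6 and at 15.1, 13.9 and 14.7 FPKM in sh_IFI6. The groups did not overlap, and the lowest OE_IFI6 library lay above every other library of the study. The means were 312 ± 45 and 14.6 ± 0.646 FPKM (SD, n = 3), a ratio of 21.4. On the log2(FPKM + 1) scale the difference was 4.32 (SE 0.17, 95% confidence interval 3.95 to 4.68, limma adjusted p = 1.3e-07). A two-sided exact permutation of 3 against 3 libraries gave p = 0.1, the smallest that its 20 splits allow. These groups were chosen for their IFI6 level, so neither p-value for IFI6 is independent support. Its values serve as a check of the labels. The control vectors sat between the extremes and close to sh_IFI6. OE_control had 27.3, 17.9 and 28.8 FPKM and sh_control 24.9, 24.1 and 21.2 FPKM. Most of the range thus came from the overexpression arm, with sh_IFI6 at 62.3% of sh_control and OE_IFI6 at 12.6 times OE_control.

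Among the 3 transcripts printed above, IFI6-202 carried the rise, at 303, 258 and 351 FPKM against 14.3, 12.4 and 13.4 FPKM. It made up 97.5% of the gene's FPKM in OE_IFI6 and 91.8% in sh_IFI6. IFI6-203 stood at 4.41 ± 1.31 against 1.19 ± 0.328 FPKM. IFI6-201 read 0.834, 7.66 and 1.49 FPKM in OE_IFI6 and at most 0.0277 FPKM in sh_IFI6. The transcripts also differ in their deposited ends. A fragment must cover the printed stretch or a differing end to tell them apart, and the deposited values do not say how many did.

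No relative of IFI6 passed the test. IFI27L1 read 5.65, 6.18 and 10.3 FPKM in OE_IFI6 and 9.31, 6.17 and 7.94 FPKM in sh_IFI6. The ranges overlap, and the log2 difference was -0.10 (95% confidence interval -0.75 to 0.55, limma adjusted p = 0.92). IFI27, the best-known member and a strong interferon target, stayed at or below 0.799 FPKM in all 6 libraries, and IFI27L2 at or below 0.448 FPKM. Neither met the limit of 1 FPKM, so neither was tested.

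Beyond IFI6, 3 genes passed the threshold of a limma adjusted p under 0.05. In all, 4 of 10925 genes (0.0366%) were called. IFI6 and RBMXL1 rose (0.0183%) and PTBP1 and FAM219A fell (0.0183%) in OE_IFI6 relative to sh_IFI6. The next smallest adjusted p was 0.13. At an unadjusted p under 0.05 there were 972 genes (8.9%), of which 276 were higher (2.53%) and 696 lower (6.37%). The libraries of the groups did not overlap for 1560 genes (14.3%). With 3 libraries against 3, a lack of overlap cannot reach a two-sided exact permutation p below 0.1. Without OE_IFI6 replicate 3, which lay apart from its group on the first component, 4 genes were called, with SYBU in place of FAM219A. In that fit 1815 genes had an unadjusted p under 0.05, against 624 without replicate 1 and 659 without replicate 2. The median log2 difference over all genes was -0.04, and the middle 90% lay between -0.39 and 0.35. The median standard error was 0.16, and for 10129 genes (92.7%) the 95% confidence interval lay wholly within 1 log2 unit of 0 in either direction. For those genes a change of more than 2-fold on this scale lies outside the interval.

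**Figure D1:**
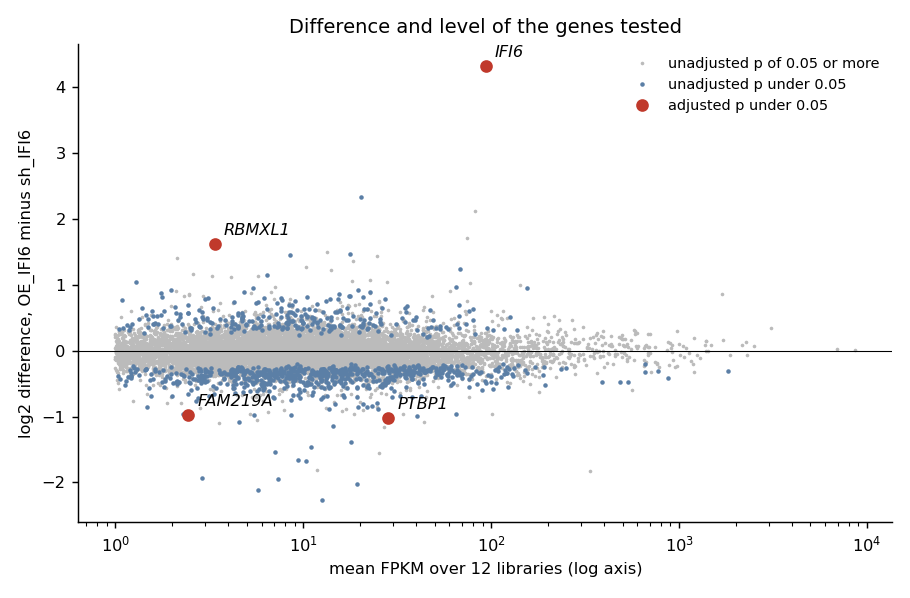
Log2 difference between OE_IFI6 and sh_IFI6 (y axis) against mean FPKM over the 12 libraries (x axis, log scale) for the 10925 genes tested, 1 point per gene. IFI6 stands alone at 4.32, RBMXL1 at 1.62, PTBP1 at -1.02 and FAM219A at -0.97, and most genes lie within 0.4 of 0.

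RBMXL1 (ENSG00000213516, chromosome 1, 88979456 to 88992960) was the other gene called higher. It is an expressed retrocopy of RBMX, an X-linked gene for an RNA-binding protein that takes part in splicing. It stood at 6.61, 9.39 and 7.01 FPKM in OE_IFI6 and at 1.64, 1.83 and 1.91 FPKM in sh_IFI6. The lowest OE_IFI6 library was above the highest of the other 9, since OE_control averaged 1.97 and sh_control 2.06 FPKM. The log2 difference was 1.62 (SE 0.13, 95% confidence interval 1.33 to 1.91, limma adjusted p = 0.00029). One transcript, RBMXL1-204, accounted for 5.68 of the 5.87 FPKM between the group means. It read 3.41, 8.0 and 5.74 FPKM in OE_IFI6 and at most 0.0483 FPKM in sh_IFI6. The other transcripts of the gene together stood at 1.95 ± 1.08 against 1.76 ± 0.133 FPKM (SD, n = 3), a difference inside the spread.

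RBMXL1 is a call whose reads are uncertain. Its sequence is nearly that of RBMX, and the authors' way of sharing reads between the copies was not stated in the labels. RBMX itself stood at 33.5, 48.9 and 41.0 FPKM against 32.2, 36.4 and 42.1 FPKM (log2 0.14, limma adjusted p = 0.77). The gene also overlaps KYAT3, a kynurenine aminotransferase gene, which stood at 45.9 ± 6.42 against 40.7 ± 1.75 FPKM (SD, n = 3; log2 0.16, limma adjusted p = 0.71). Neither of these genes passed the test.

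PTBP1 (ENSG00000011304, chromosome 19, 797075 to 812327) encodes polypyrimidine tract binding protein, a repressor of exon inclusion. It stood at 17.7, 19.1 and 23.2 FPKM in OE_IFI6 and at 48.1, 39.5 and 37.4 FPKM in sh_IFI6. The groups did not overlap, and the means were 19.99 ± 2.89 and 41.6 ± 5.69 FPKM (SD, n = 3). The log2 difference was -1.02 (SE 0.14, 95% confidence interval -1.32 to -0.72, limma adjusted p = 0.034). The control vectors fell in the same order: OE_control averaged 22.1 and sh_control 29.9 FPKM (log2 -0.43, limma adjusted p = 0.085), and the difference between the 2 contrasts was not past the threshold (adjusted p = 0.13).

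PTBP1 regulates its own message by skipping a 34-base exon, and PTBP1-207 is annotated as a product of that skipping and as a target of nonsense-mediated decay. The exon (exon 10 of PTBP1-202, chr19:807869-807902, GRCh38, plus strand, from GENCODE release 29) is shown in capitals. Because 34 is no multiple of 3, its loss shifts the reading frame. PTBP1-207 had the largest difference of the PTBP1 transcripts, a part of that of the gene.
PTBP1-202: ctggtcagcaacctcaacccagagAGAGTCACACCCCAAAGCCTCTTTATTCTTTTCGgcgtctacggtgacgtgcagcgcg
PTBP1-207: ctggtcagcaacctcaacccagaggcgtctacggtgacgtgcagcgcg
PTBP1-207 read 0.308, 0.210 and 0.346 FPKM in OE_IFI6 and 16.2, 7.75 and 2.70 FPKM in sh_IFI6. It stayed at or below 0.788 FPKM in all 6 control libraries, so sh_IFI6 was the group that stood apart, with unequal values in its 3 libraries. It accounted for 8.61 of the 21.7 FPKM between the group means. The rest of the gene stood at 19.7 ± 2.85 against 32.7 ± 1.67 FPKM, which still does not overlap. PTBP1-202, which holds the exon, read 0.140, 0.736 and 3.68 FPKM in OE_IFI6 and 15.2, 10.5 and 0.335 FPKM in sh_IFI6. PTBP1-208 read 16.0 FPKM in sh_IFI6 replicate 3 and 0 in all OE_IFI6 libraries. The assignment to transcripts thus varied by library, and a change in exon skipping was not tested. Coding transcripts alone stood at 11.6 ± 2.53 against 24.3 ± 1.55 FPKM (log2 -1.02), and in a fit of coding transcripts only PTBP1 was not called (limma adjusted p = 0.23). The paralogues PTBP2 and PTBP3, whose exons PTBP1 represses in some tissues, stood at log2 0.27 (adjusted p = 0.63) and 0.01 (adjusted p = 0.99).

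FAM219A (ENSG00000164970, chromosome 9, 34398184 to 34458570), a gene of little-known function, was low in all groups. It stood at 0.981, 0.523 and 1.07 FPKM in OE_IFI6 and at 2.69, 2.45 and 2.71 FPKM in sh_IFI6. All 3 OE_IFI6 libraries lay below the other 9, since OE_control averaged 3.81 and sh_control 2.47 FPKM. The log2 difference was -0.97 (SE 0.14, 95% confidence interval -1.28 to -0.67, limma adjusted p = 0.046). The value was assigned to different transcripts in different libraries: in sh_IFI6 it lay mainly on FAM219A-201 in replicate 1 (2.24 FPKM), on FAM219A-207 in replicate 2 (2.32 FPKM) and on FAM219A-204 in replicate 3 (2.71 FPKM).

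The calls for PTBP1 and FAM219A depend on the fit. PTBP1 was called in 1 of the 6 fits that left out a library (without OE_IFI6 replicate 3, adjusted p = 0.023), and lost in the other 5 (limma adjusted p = 0.086 to 0.15). FAM219A was lost in all 6 (limma adjusted p = 0.06 to 0.26). In a fit of only the 6 libraries compared, both had an adjusted p of 0.19, and without the OE_control libraries they had 0.071 and 0.079. IFI6 and RBMXL1 were called in all 6 of those leave-one-out fits and in both smaller fits.

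**Figure D2:**
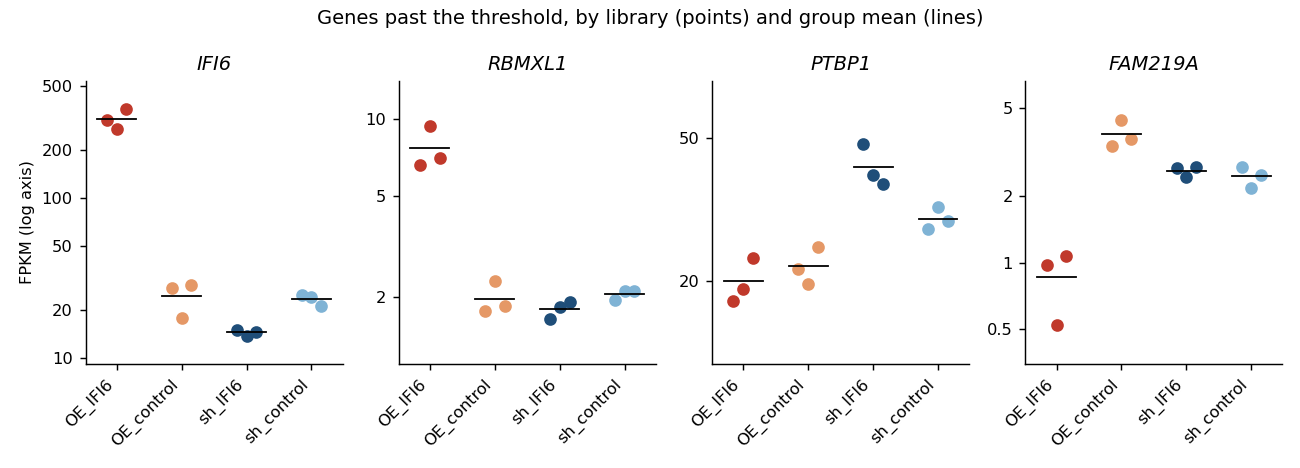
FPKM (y axis, log scale) of the 4 genes past the threshold in the 12 libraries, by group, with points for libraries and lines for group means of 3. In IFI6, RBMXL1 and FAM219A the OE_IFI6 libraries stand apart from all other 9, while PTBP1 is as low in OE_control (mean 22.1) as in OE_IFI6 (mean 19.99).

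Next in order came genes that did not pass. AHR, the aryl hydrocarbon receptor, stood at 25.02, 24.2 and 19.9 FPKM in OE_IFI6 and at 11.6, 11.5 and 12.6 FPKM in sh_IFI6 (log2 0.89, 95% confidence interval 0.57 to 1.21, limma adjusted p = 0.13). Of the 11.1 FPKM between the group means, 10.6 lay on AHR-205, a noncoding transcript whose 2 exons sit inside exons of the coding transcript AHR-201. AHR-205 read 11.3, 8.92 and 12.0 FPKM in OE_IFI6 and 0.126, 0.226 and 0.182 FPKM in sh_IFI6. The rest of AHR stood at 12.3 ± 3.89 against 11.7 ± 0.634 FPKM (SD, n = 3). The control groups had AHR-205 at 19.6 ± 4.40 FPKM (OE_control) and 11.2 ± 1.05 FPKM (sh_control), so sh_IFI6 was the group that differed from the other 3.

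C5orf24 stood at 1.54, 2.38 and 2.61 against 0.666, 1.08 and 0.811 FPKM (log2 0.77, limma adjusted p = 0.16). RCN1, a calcium-binding protein of the endoplasmic reticulum, stood at 154, 174 and 159 against 108, 117 and 115 FPKM (log2 0.51, adjusted p = 0.29). Its groups did not overlap, but summed over coding transcripts alone the sign turned (log2 -0.20). On the lower side, CCDC86, a nucleolar protein, stood at 24.1, 18.9 and 23.2 against 36.7, 36.5 and 35.5 FPKM (log2 -0.70, limma adjusted p = 0.15). RAPGEF1, an exchange factor for the GTPase Rap1, stood at 4.13, 4.41 and 5.83 against 9.63, 10.5 and 10.99 FPKM (log2 -0.98, adjusted p = 0.16). AC010531.1 stood at 0.849, 0.618 and 0.489 against 1.48, 2.31 and 2.18 FPKM (log2 -0.85, adjusted p = 0.13).

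Gene values are sums over transcripts, and 7 of 17030 coding transcripts (0.0411%) passed the same test, 6 higher (0.0352%) and 1 lower (0.00587%). Transcripts entered it at a mean of 1 FPKM or more over the 12 libraries. RBMXL1-204, IAH1-204, MARCH7-202 and MZT2B-209 averaged at most 0.482 FPKM in each group other than OE_IFI6. They entered the test only through the group where they were high, so their calls are not independent of that filter. The unadjusted count was 1056 (6.2%; 2.41% higher and 3.79% lower). In a fit of only the 6 libraries compared, 15 were called, and IFI6-202 was the only one of these 7 among them. With a pseudocount of 0.1, IAH1-204, MARCH7-202, MZT2B-209 and PPP1CC-202 were not called. Of the 7 genes involved, 2 were also called as genes (IFI6 and RBMXL1). In the other 5 the gene total did not pass. RABL6-201, from a gene for a Rab-like GTPase, read 3.70, 3.39 and 5.46 FPKM in OE_IFI6 and at most 0.00915 FPKM in sh_IFI6 (log2 2.35, limma adjusted p = 0.0033). The whole gene stood at 42.8 ± 11.1 against 47.4 ± 0.0584 FPKM, and OE_control (3.63 FPKM) and sh_control (listed at 0) repeated the split between the kinds of vector.

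IAH1-204, from a gene for an esterase, was high in OE_IFI6 alone, at 5.14, 5.57 and 8.61 FPKM against at most 0.212 FPKM in sh_IFI6 (log2 2.71, limma adjusted p = 0.0041) and at most 0.378 FPKM in the controls. The gene stood at 15.9 ± 0.781 against 13.5 ± 1.36 FPKM (SD, n = 3). MARCH7-202, from a ubiquitin ligase gene, read 3.33, 3.797 and 7.72 FPKM against at most 0.00586 FPKM (log2 2.50, limma adjusted p = 0.024). MZT2B-209, from a gene of the gamma-tubulin ring complex, read 17.2, 12.3 and 5.24 FPKM against 0, 0 and 0.716 FPKM (log2 3.26, limma adjusted p = 0.028). Both were low in the 6 control libraries too. PPP1CC-202, from a catalytic subunit gene of protein phosphatase 1, was the transcript that fell, at 0.937, 0.366 and 1.14 FPKM in OE_IFI6 and 7.13, 8.33 and 5.33 FPKM in sh_IFI6 (log2 -2.14, limma adjusted p = 0.01). Here sh_IFI6 was the group that stood apart, because the controls averaged 1.08 and 0.857 FPKM. The whole genes MARCH7, MZT2B and PPP1CC had adjusted p of 0.64, 0.60 and 0.91.

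With noncoding transcripts of protein-coding genes included, 11 of 25380 (0.0433%) passed, 8 higher (0.0315%) and 3 lower (0.0118%), and 1583 (6.24%; 2.25% higher and 3.99% lower) had an unadjusted p under 0.05. This fit was added after the data were seen. The largest log2 difference among the 11 was in HMG20B-212, a retained-intron transcript of a gene for a chromatin protein of the LSD1 complex. It read 0.631, 0.289 and 0.362 FPKM in OE_IFI6 and 55.1, 57.8 and 55.5 FPKM in sh_IFI6 (log2 -5.33, SE 0.17, limma adjusted p = 1.3e-06). The control vectors ran the other way, with 65.1, 47.1 and 66.0 FPKM in OE_control and 0.318, 0.470 and 0.709 FPKM in sh_control. It was thus high in OE_control and sh_IFI6 and below 1 FPKM in OE_IFI6 and sh_control. The cause of this crossed pattern was not tested. The gene total was 97.3 ± 35.9 against 137 ± 2.46 FPKM (SD, n = 3; log2 -0.55, limma adjusted p = 0.56).

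The others added by that fit were AHR-205 (log2 3.31, limma adjusted p = 7.4e-05), OXA1L-207 and TCONS_00403636. OXA1L-207, a retained-intron transcript of a gene for a mitochondrial inner membrane insertase, read 40.9, 16.1 and 51.3 FPKM against 1.29, 3.19 and 3.02 FPKM (log2 3.31, limma adjusted p = 0.03). TCONS_00403636, assembled by the authors at DNAJC25-GNG10, was listed at 0 in all OE_IFI6 and OE_control libraries and read 2.90, 3.42 and 3.29 FPKM in sh_IFI6 and 2.61 to 3.93 FPKM in sh_control. It therefore separated the kinds of vector whatever their IFI6 content. The DNAJC25-GNG10 total was 15.3 ± 0.937 against 15.1 ± 0.846 FPKM (SD, n = 3).

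**Figure D3:**
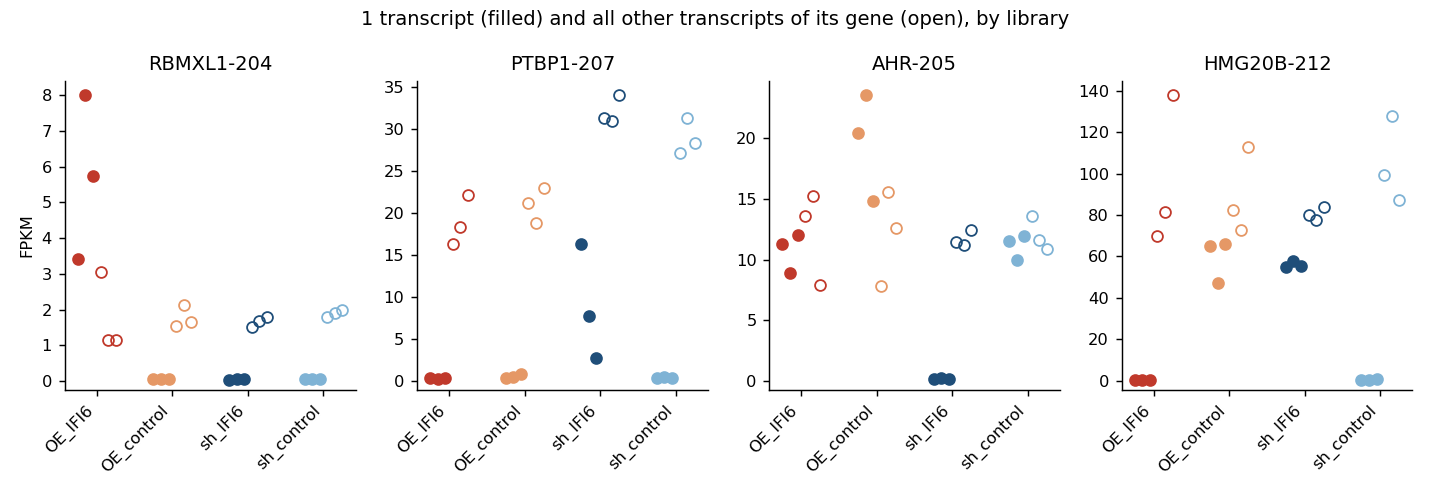
FPKM (y axes) of RBMXL1-204, PTBP1-207, AHR-205 and HMG20B-212 (filled) and of all other transcripts of the same gene (open) in each library, by group. RBMXL1-204 is high in OE_IFI6 alone, PTBP1-207 in sh_IFI6 alone, AHR-205 is near 0 in sh_IFI6 alone, and HMG20B-212 is near 0 in OE_IFI6 and sh_control.

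The pathway lists held 0 called genes other than IFI6. Of 35 further lists, 1 gained a call in any alternative fit, the immediate early genes, where KLF10 was called once sh_IFI6 replicate 2 was left out. The lists are therefore described by their median log2 difference and by unadjusted counts, beside -0.04 and the background of 2.53% higher and 6.37% lower over all genes. The medians of these 35 lists ran from -0.21 to 0.12.

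No interferon target other than IFI6 passed the test. Of 26 interferon-stimulated genes tested, 1 was higher and 1 lower at an unadjusted p under 0.05, with a median of -0.04. ISG15, a ubiquitin-like modifier and strong interferon target, stood at 12.3, 15.3 and 16.6 against 16.9, 17.4 and 15.6 FPKM (log2 -0.17, 95% confidence interval -0.46 to 0.12). IFIT1, a sensor of foreign RNA, stood at 3.55, 4.49 and 2.90 against 3.42, 3.20 and 3.57 FPKM (log2 0.07, interval -0.22 to 0.35). BST2, or tetherin, had a log2 difference of -0.18 (interval -0.46 to 0.10). LY6E had -0.55 (limma adjusted p = 0.56), and its groups did not overlap. MX1 reached at most 0.0473 FPKM and was not tested.

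Upstream of them, 22 genes of interferon signalling had 0 higher and 4 lower at an unadjusted p under 0.05, with a median of -0.04. JAK1, a kinase of the interferon receptors, stood at 91.6, 108 and 91.3 against 99.6, 104 and 103 FPKM, and STAT3 at 38.6, 39.0 and 48.7 against 40.6, 43.0 and 42.6 FPKM. The ranges of both overlapped. Of 17 antigen presentation genes 0 were higher and 2 lower (median -0.16), and B2M, the light chain of class I molecules, had a log2 difference of 0.10 (interval -0.17 to 0.36). Of 11 nucleic acid sensors 0 were higher and 1 lower (median -0.17), with CGAS at 0.01 (interval -0.21 to 0.23).

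Stress genes lay slightly below 0. Of 26 heat shock genes 0 were higher and 3 lower at an unadjusted p under 0.05, with a median of -0.14. DNAJB1, an HSP40 co-chaperone, stood at 30.2, 30.9 and 33.4 against 32.9, 34.0 and 32.7 FPKM (log2 -0.07, interval -0.29 to 0.14). HSPA1A, an inducible HSP70, stood at 5.69, 8.84 and 8.73 against 13.2, 11.9 and 10.1 FPKM (log2 -0.56, interval -1.12 to 0.01), and its reads cannot be separated with certainty from those of the near-identical HSPA1B. HSPA8, the constitutive HSP70, had -0.32 (-0.76 to 0.12). Of 37 targets of ATF4, which drives the integrated stress response, 0 were higher and 6 lower (median -0.14). DDIT3, or CHOP, was among the lower, at 3.38, 4.81 and 4.15 against 5.20, 6.61 and 5.64 FPKM (log2 -0.42, limma adjusted p = 0.54). ATF4 itself had -0.06 (-0.27 to 0.16). ATF3 varied most among them, at 3.796, 15.6 and 18.7 against 18.2, 20.3 and 7.84 FPKM, and its interval of -1.76 to 0.96 leaves either direction possible. Of 30 genes of the unfolded protein response 0 passed in either direction (median -0.11), with HSPA5, or BiP, at -0.24 (-0.73 to 0.25) and CALR, or calreticulin, at -0.25 (-0.54 to 0.04).

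Metabolic lists also had medians below 0, beside a median of -0.04 over all genes. Of 33 hypoxia and glycolysis genes 1 was higher and 8 were lower at an unadjusted p under 0.05, 27.3% of the list beside 8.9% of all genes, with a median of -0.14. The 8, named after their values were seen, were CA9, VEGFA, NDRG1, SLC2A1, SLC2A3, GPI, ALDOC and PKM, all induced by low oxygen or enzymes and transporters of glucose use. CA9, a carbonic anhydrase, averaged 155 against 200.1 FPKM, and SLC2A3, a glucose transporter, 481 against 603 FPKM. VEGFA is also in the ATF4 list and stood at 8.72, 25.4 and 27.6 against 31.7, 34.8 and 32.1 FPKM. The 2 members of highest level did not pass at that p: GAPDH had 0.03 (-0.22 to 0.27) and LDHA -0.21 (-0.43 to 0.02). Of 29 genes of cholesterol synthesis and uptake 0 were higher and 5 lower (median -0.08). HMGCS1, an early enzyme of the pathway, stood at 33.0, 38.8 and 33.9 against 40.4, 39.0 and 44.9 FPKM (log2 -0.23, interval -0.49 to 0.04). MSMO1, a later enzyme, had 0.05 (-0.25 to 0.34). Of 18 fatty acid synthesis genes 0 were higher and 3 lower (median -0.07), with SCD, the stearoyl-CoA desaturase, at -0.21 and FASN at -0.07.

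Across genes, the log2 differences varied with base composition. Across the 10906 genes with a GC value, the log2 difference had a Pearson r of -0.403 with GC content (Spearman rho -0.486), as a description across genes that share the same libraries. Genes higher at an unadjusted p under 0.05 had a median GC of 40.7%, genes lower had 58.9%, and all genes 49.1%. By library the correlation of a gene's deviation with GC ran from -0.513 (OE_IFI6 replicate 2) to 0.342 (sh_IFI6 replicate 2), and OE_IFI6 replicate 3 (0.241) had the sign of the sh_IFI6 libraries. In the control contrast the r was 0.0295. After a correction for GC and length, the ATF4 median was -0.01, the hypoxia median -0.08 and the heat shock median -0.09, with 3, 4 and 2 members at an unadjusted p under 0.05 in either direction. The antigen presentation median was then -0.03 and that of the unfolded protein response -0.02. The cholesterol median was -0.08 before and after the correction, and the fatty acid median went from -0.07 to -0.09. Over the 35 lists the corrected medians ran from -0.22 for the mitochondrial genome to 0.19 for histones. Without OE_IFI6 replicate 3, the medians were -0.22 for ATF4 targets, -0.23 for hypoxia genes and -0.11 for heat shock genes, with 14, 12 and 7 members at an unadjusted p under 0.05. The part of base composition in the list medians was not tested further.

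Cell cycle and growth lists stayed near 0. Of 41 mitosis genes 0 were higher and 1 lower (median 0.00), and of 47 genes of the G1/S transition and DNA replication 1 was higher and 2 lower (median -0.06). PCNA, the replication clamp, stood at 210, 206 and 206 against 183, 190 and 199 FPKM (log2 0.12, interval -0.12 to 0.36). MKI67, the proliferation antigen, had -0.06 (-0.39 to 0.27). Of 56 replication-dependent histone genes 0 passed in either direction, and their median of 0.12 was the highest of the lists. After the GC and length correction the histone median was 0.19, with 11 members at an unadjusted p under 0.05. The near-identical HIST2H2AA3 and HIST2H2AA4 had 0.08 and 0.11. CDKN1A, the p53 target that halts the cycle, had 0.03 (-0.60 to 0.66), and among 28 p53 targets 2 were higher and 1 lower (median -0.06). MYC was uneven within groups, at 105, 75.0 and 41.3 against 115, 37.8 and 36.7 FPKM (log2 0.34, interval -0.94 to 1.61). Among 38 genes of MYC and ribosome biogenesis 2 were higher and 5 lower (median 0.01), and of 59 cytosolic ribosomal protein genes 1 was higher and 0 lower (median 0.04).

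Mitochondrial and apoptosis genes, the groups closest to the known site of IFI6, also stayed near 0. Of 59 nuclear genes of the respiratory chain 1 was higher and 0 lower (median -0.02), and of 25 mitochondrial chaperones, proteases and dynamics genes 0 passed (median -0.02). Of 9 tested genes of the mitochondrial genome 0 were higher and 1 lower (median -0.21, but -0.08 without OE_IFI6 replicate 3 and -0.02 without sh_IFI6 replicate 1), and MT-CO1 stood at 731, 762 and 768 against 1012, 852 and 795 FPKM (log2 -0.23, interval -0.55 to 0.10). Of 19 genes of mitochondrial calcium transport 0 were higher and 1 lower (median -0.06). Of 28 apoptosis regulators 2 were higher and 1 lower (median -0.05). MCL1, an anti-apoptotic BCL2 relative, had -0.07 (-0.43 to 0.30), and CYCS, cytochrome c, had 0.28 (-0.06 to 0.62). Of 29 NRF2 targets and antioxidant enzymes 1 was higher and 1 lower (median -0.05). PRDX3, the mitochondrial peroxiredoxin, stood at 487, 519 and 496 against 413, 441 and 451 FPKM, which did not overlap, yet its log2 difference of 0.20 had an interval of -0.04 to 0.45. HMOX1, heme oxygenase, had -0.28 (-0.70 to 0.14).

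Signalling and adhesion lists held single genes of larger difference. IER3, an immediate early gene of the NF-kB response, stood at 337, 368 and 441 against 490, 555 and 549 FPKM (log2 -0.48, limma adjusted p = 0.43). In its list of 35 immediate early genes 2 were higher and 4 lower (median -0.09). NFKB2 stood at 29.5, 25.5 and 29.9 against 37.3, 40.7 and 31.7 FPKM (log2 -0.36, adjusted p = 0.54), and in its list of 16 NF-kB and cytokine genes 0 were higher and 2 lower (median -0.19, and -0.04 after the GC and length correction). ITGB1, the beta 1 integrin, stood at 94.8, 83.6 and 53.7 against 58.3, 31.3 and 30.5 FPKM (log2 0.96, adjusted p = 0.44), with 1 overlapping pair of libraries. Of 28 mesenchymal and matrix genes 1 was higher and 4 lower (median -0.07). VIM, or vimentin, had -0.10 (-0.65 to 0.45). Of 16 epithelial junction genes 2 were higher and 2 lower (median 0.03).

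The remaining lists are given by counts, as members higher and lower at an unadjusted p under 0.05. They were 1 and 4 of 37 for autophagy and lysosome (median -0.12), 0 and 4 of 33 for the proteasome (-0.01), 1 and 1 of 17 for YAP and TEAD targets (-0.04) and 0 and 1 of 14 for small RNA silencing (0.00). There were 0 in either direction among 8 squamous identity genes (-0.08), 5 simple epithelial keratins (-0.13), 4 metallothionein genes (-0.06) and 6 fibroblast markers. Of 3 immune and endothelial markers tested 0 were higher and 1 lower (-0.17). That one was CD68, at 0.671, 0.971 and 0.551 against 0.779, 2.09 and 1.26 FPKM. The summed immune markers were 2.47 to 2.70 FPKM in OE_IFI6 and 2.87 to 4.06 FPKM in sh_IFI6, and the summed fibroblast markers 7.05 to 8.73 and 7.73 to 8.74 FPKM. The libraries came from an established line, and these sums were not read as numbers of immune or fibroblast cells.

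**Figure D4:**
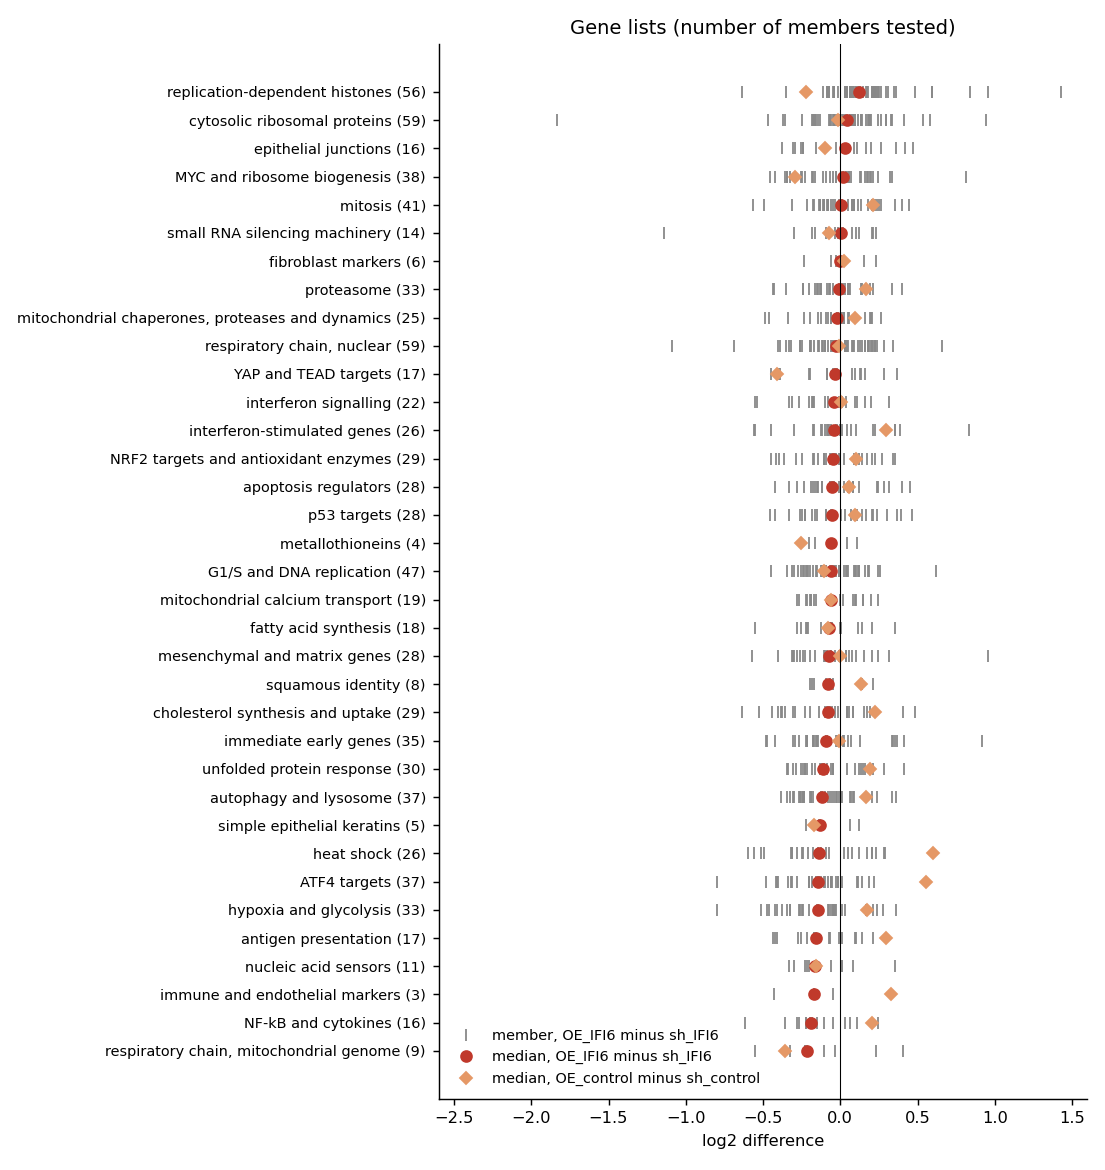
Log2 differences (x axis) of the members of 35 gene lists (y axis, with the number tested) between OE_IFI6 and sh_IFI6 as ticks, with the list median as a circle and the median in OE_control against sh_control as a diamond. The circles lie between -0.21 and 0.12, and the diamonds reach 0.60 for heat shock genes and 0.55 for ATF4 targets.

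OE_control against sh_control compares the kinds of vector without an IFI6 vector, and it shares no library with the main comparison. The OE_control libraries stood apart from all others, OE_IFI6 included, on the first principal component. This contrast therefore cannot tell the kind of vector from whatever set OE_control apart. There 822 of 10925 genes (7.52%) passed, 300 higher (2.75%) and 522 lower (4.78%), although IFI6 itself differed by log2 0.05 (limma adjusted p = 0.89). At an unadjusted p under 0.05 there were 2662 (24.4%; 7.82% higher and 16.5% lower). The direction of the adjusted count depends on scaling, with 480 higher and 358 lower after median-of-ratios scaling and 378 and 330 after quantile normalization. Of the 822 genes, 0 were called between OE_IFI6 and sh_IFI6. Their median absolute difference was 0.62 between the control vectors. Signed by the direction seen there, the median between the IFI6 vectors was -0.03, and 364 (44.3%) had the same sign. Across all genes the log2 differences of the 2 contrasts had a Pearson r of -0.0516 (Spearman rho -0.0803).

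Heat shock genes show the contrast plainly. DNAJB1 had a log2 difference of 3.06 between the control vectors (limma adjusted p = 1.3e-08) and of -0.07 between the IFI6 vectors. HSPA1A had 3.32 and -0.56, DDIT3 1.81 and -0.42, HSPA5 1.67 and -0.24, ISG15 1.30 and -0.17, and HMGCS1 1.13 and -0.23. The difference between the contrasts passed the threshold for each of these genes (limma adjusted p from 5.3e-07 for DNAJB1 to 0.0097 for HSPA5). Over all genes it passed for 294 (2.69%), 129 higher (1.18%) and 165 lower (1.51%), and at an unadjusted p under 0.05 for 2062 (18.9%; 10.8% higher and 8.04% lower). The 3 OE_control libraries stood apart on the first principal component, as given above, and enter both the control contrast and this test.

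**Figure D5:**
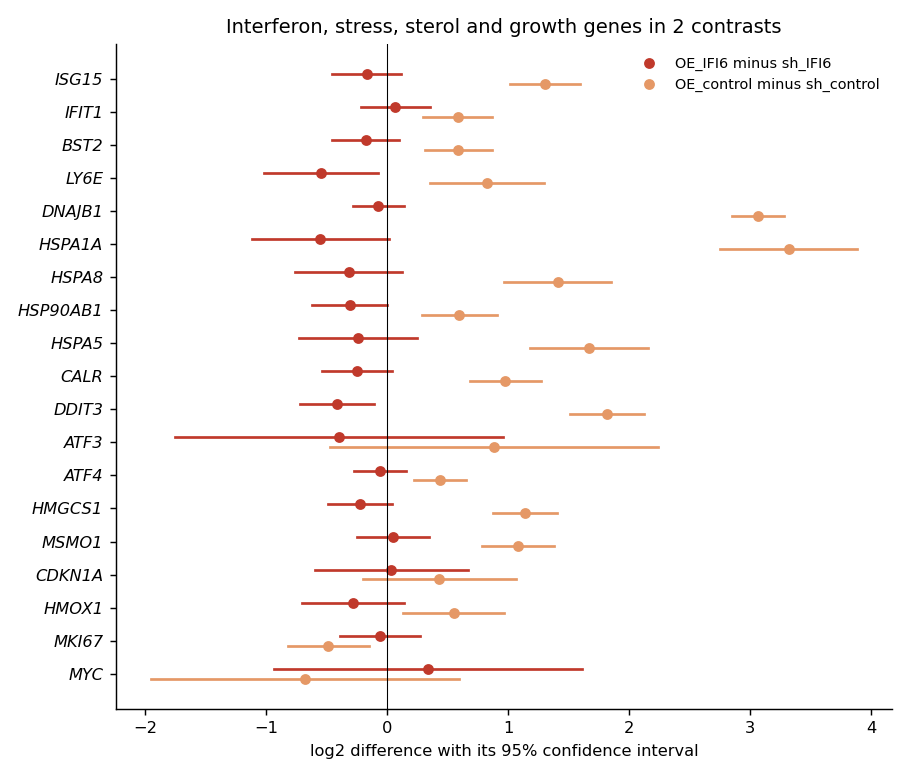
Log2 difference with its 95% confidence interval (x axis) for interferon, stress, sterol and growth genes (y axis) in OE_IFI6 against sh_IFI6 and in OE_control against sh_control. DNAJB1 lies at -0.07 in the first and 3.06 in the second.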

How the data were processed

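The deposited values are FPKM, computed by the authors for genes and transcripts from total RNA libraries of 12 TE-1 samples. Tools listed without version or role, per the submitters' processing notes, were Cuffdiff, edgeR, HISAT2 and StringTie. Genome build, annotation and strandedness were not given in the sources used here. Of 259360 deposited transcript identifiers, 205999 are in GENCODE release 29, 93.2% of these with the same bounds. Read totals were not used here, so depth is unknown. Low values fell on whole-read steps (within 0.05) for at most 16.2% of genes, which gave no read counts to test.

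Groups came from sample titles. Limma 3.58.1 (R 4.3.3) fitted log2(FPKM + 1) by group over all 12 libraries (8 residual degrees of freedom, trended prior). Fold changes on this scale understate low genes. Tests were two-sided with Benjamini-Hochberg adjustment over all features. The code was tested on simulated data.

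Members and gene lists were chosen with earlier results of these data known. Genes were named by a rule: the IFI6 family, genes past the threshold whose groups do not overlap, the 5 smallest p per direction, the 2 highest members of each list, and a fixed set of stress, interferon and growth genes. Alternatives were another pseudocount, filters, scalings, priors, library sets, the replicate block, an added threshold and leaving out libraries. Fits of coding transcripts only, of all transcripts, and with GC and length correction were added after the data were seen. Some genes fitted by that rule are not reported here.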

Additional observations from a re-analysis of the deposited data

Results flagged for a closer look

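A difference between the IFI6 contrast and the control contrast, tested as an interaction in limma, passed an adjusted p under 0.05 for 294 genes, 23 of which are among the genes named by rule. Values are the log2 difference between OE_IFI6 and sh_IFI6 minus that between OE_control and sh_control. IFI6 had 4.27 and RBMXL1 1.67. Their log2 differences were 4.32 and 1.62 between OE_IFI6 and sh_IFI6, and 0.05 and -0.05 between OE_control and sh_control. In both genes OE_IFI6 was the group that stood apart. TFAP2A had 1.08, C5orf24 0.90 and SLC7A5 0.76.

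The others were negative. Heat shock and chaperone genes led: HSPA1A had -3.87, DNAJB1 -3.14, HSPA5 -1.91, HSPA8 -1.73, CALR -1.23, HSP90AB1 -0.91 and HSPD1 -0.86. DDIT3, the ATF4 target, had -2.23. Among interferon targets, ISG15 had -1.48, LY6E -1.37 and BST2 -0.76. The sterol genes HMGCS1 and MSMO1 had -1.36 and -1.04, and the immediate early genes IER3 and DUSP1 -1.22 and -0.81. AC010531.1 had -1.54, FAM219A -1.44 and RAPGEF1 -1.09. For the heat shock, interferon and sterol genes the libraries that stood apart were OE_control: DNAJB1 averaged 271.8 FPKM there and 31.5, 33.2 and 31.5 FPKM in OE_IFI6, sh_IFI6 and sh_control. Groups of 3 were too small for a test of single outlying libraries.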

How the results depend on the processing

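IFI6 was called in all 19 settings in which it was tested (log2 4.21 to 4.42) and RBMXL1 in all 18 (1.48 to 2.02). PTBP1 was called in 8 of 19 (-1.13 to -0.85, limma adjusted p = 0.017 to 0.23) and FAM219A in 3 of 18 (-1.55 to -0.80, adjusted p = 0.04 to 0.26). Instead of 4 genes, 2 were called with no filter on low values, with a mean of at least 5 FPKM, with median-of-ratios scaling, with only the libraries compared, without the 3 OE_control libraries and over coding transcripts only. After GC and length correction 5 were called, AHR and CLK1 among them and FAM219A not. Leaving out 1 library gave 2 to 5 genes. Instead of 7 coding transcripts, 1 was called at a mean of at least 5 FPKM, 15 with only the libraries compared (of the 7, IFI6-202 alone), 5 with a pseudocount of 0.1 (3 of the 7), and 11 to 24 without 1 library. The fit of all transcripts was not repeated under the alternatives. The control contrast (822) gave 429 genes with only the libraries compared, 98 with an absolute log2 difference of at least 1, and 319 to 769 without 1 library, the lowest without sh_control replicate 2. The difference of differences (294) gave 127 with that added threshold and 123 to 518 without 1 library, the highest without OE_IFI6 replicate 3. The cause of these changes was not tested. Of 35 list medians, 25 moved by more than the replicate spread under some setting.

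Between OE_IFI6 and sh_IFI6, same-numbered libraries had deviations correlated at 0.127, -0.146 and -0.0988. Other groups were not checked for pairing. For replicates 1 to 3 the correlation with GC was -0.125, -0.513 and 0.241 in OE_IFI6 and 0.0197, -0.237 and 0.199 in OE_control. It was 0.258, 0.342 and 0.0498 in sh_IFI6 and -0.17, 0.0217 and -0.00425 in sh_control. Whether the replicate numbers mark a shared batch was not tested. With a replicate block 2 genes (IFI6 and RBMXL1) and 3 coding transcripts were called in the main comparison. Depth is unknown, so what it limits could not be computed.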

Other observations

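Of the genes tested, 45 had an absolute log2 difference above 1 between OE_IFI6 and sh_IFI6, 25 higher and 20 lower, and 42 of these were not called. They were chosen after their values were seen. In 30 of the 45 (66.7%) the libraries of OE_IFI6 or of sh_IFI6 spanned more than 2 log2 units, against 100 of all genes tested (0.915%). The median standard error of the 42 was 0.711, against 0.158 over all genes. Several switched between a high and a low level within a group. IMP3, of the small nucleolar ribonucleoprotein for ribosomal RNA processing, stood at 82.9, 81.1 and 98.1 FPKM in OE_IFI6 and at 84.2, 1.72 and 83.2 FPKM in sh_IFI6. MAGEA6, a cancer-testis antigen gene, stood at 78.0, 105 and 111 against 95.3, 0.0586 and 113 FPKM, and it has near-identical relatives that can share its reads. HIST4H4, a histone gene, stood at 1.05, 57.3 and 66.4 against 67.4, 1.29 and 1.63 FPKM. JPT2 kept its groups apart, at 1.77, 3.30 and 2.90 against 19.3, 24.7 and 9.03 FPKM (log2 -2.27, limma adjusted p = 0.44).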
